A study of Mus musculus with 12 samples.

Results

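Some accessible places in the chromatin of hematopoietic stem cells (HSCs) ranked high at 3 months but seldom at 18 months in both genotypes. Of 51428 regions, 723 were of this kind and were examined. ATAC-seq, in which a transposase cuts and tags open DNA, had been run on HSCs sorted from the bone marrow of C57BL/6 mice as Lin- cKit+ Sca1+ Flk2- CD48- CD150+ cells. There were 12 libraries, 3 from each of 4 groups, namely wild-type (WT) and Mlkl-/- mice at 3 months (young) and WT and Mlkl-/- mice at 18 months (aged). Mlkl encodes the pseudokinase that carries out necroptosis, and the labels name no treatment. The methods describe cells pooled from several mice for every library, with more mice per pool at 3 than at 18 months, all prepared on 1 day.

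Each library was deposited as a list of peak summits with a score, which is the −log10 of the q-value from the peak caller. For each list the 34810 summits of highest score on chromosomes 1 to 19 were kept, among those scoring at least 3, because the shortest list held that many. Windows of 250 bp on each side of all kept summits were merged into the 51428 regions of the catalogue. A region was counted as lost when at least 5 of 6 young lists and at most 1 of 6 aged lists had a kept summit in it. The members were thus chosen by the ranks of their summit scores at both ages. This rule took 1.41% of the catalogue, and the mirror rule (at least 5 of 6 aged and at most 1 of 6 young lists) took 994 regions, or 1.93%, which are called gained here. A further 18747 regions were called in at least 5 of 6 lists at both ages. Because the calls at both ages chose the regions, every difference between the ages given for them is a description and was not tested. The word lost means that a summit left the top 34810 of its list, not that it disappeared. When the lists were left at their unequal lengths, the same rule took 333 regions, and 115 of the 723 were among them.

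HSCs maintain all blood lineages, and with age the pool grows while its output shifts towards platelets and myeloid cells. Accessible sites far from genes are mostly enhancers, where lineage factors of the ETS, RUNX, GATA and MEIS families bind short DNA words, and sites at transcription starts are accessible in most cell types. A loss of accessibility at an enhancer can reflect less factor bound there, fewer cells that use it, or both. In bulk libraries these cannot be told apart.

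The labelled cell type was checked at the starts of marker genes. Of 10 HSC marker genes, 3 had a summit within 1 kb of a start in all 12 lists, and Slamf1, which encodes the sorted antigen CD150, had one in none. Of the B cell genes, Ebf1 had a summit at a start in all 12 lists and Cd79b in 4. The starts of 4 of 6 B cell genes, among them Cd79a, Pax5 and Ms4a1, had no summit in any list. The same held for 4 of 6 T cell genes, 5 of 7 granulocyte or monocyte genes and 3 of 5 erythroid genes. Megakaryocyte genes had summits in all 12 lists at 3 of 5 starts. Summits at the starts of Y-linked genes were listed in 3 of 6 young and 0 of 6 aged libraries, and the part of this difference in the results for chromosomes 1 to 19 was not tested. The full autosomal lists held 35793 to 56479 summits in young and 47292 to 61367 in aged libraries, and sequencing depth was unknown.

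The sequences below show what the regions with the widest gap between the ages look like. They are the 6 with the largest young minus aged difference that lie outside UTRs, read from the mm10 reference, plus strand, with 100 bp on each side of the summit. Capitals mark consensus words of transcription factor families, searched on both strands. The Gdi2 region is chr13:3526380-3526580, in an intergenic stretch 11.6 kb upstream of Gdi2, which encodes a Rab GDP dissociation inhibitor. The AC154685.1 region is chr17:88190850-88191050, intergenic, 22.5 kb from the start of that transcript. The B4galt5 region is chr2:167375239-167375439, intergenic and 26.2 kb upstream of the gene of a glycolipid galactosyltransferase. The Gm15782 region is chr6:149348329-149348529, intergenic, and the AC107664.2 region is chr17:71489788-71489988, also intergenic, 14.5 kb from the start of Smchd1, which encodes a chromatin protein needed for X inactivation. The Serpinh1 region is chr7:99360214-99360414, intergenic and 7.08 kb upstream of the gene of a collagen chaperone.
Gdi2 region: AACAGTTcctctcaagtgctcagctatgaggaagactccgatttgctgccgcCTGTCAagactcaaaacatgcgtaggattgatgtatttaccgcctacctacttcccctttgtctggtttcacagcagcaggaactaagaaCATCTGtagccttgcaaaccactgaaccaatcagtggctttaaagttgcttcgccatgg
AC154685.1 region: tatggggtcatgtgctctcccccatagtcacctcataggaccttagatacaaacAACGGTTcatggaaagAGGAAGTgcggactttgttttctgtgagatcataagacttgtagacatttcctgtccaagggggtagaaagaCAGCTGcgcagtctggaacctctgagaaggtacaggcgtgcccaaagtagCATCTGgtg
B4galt5 region: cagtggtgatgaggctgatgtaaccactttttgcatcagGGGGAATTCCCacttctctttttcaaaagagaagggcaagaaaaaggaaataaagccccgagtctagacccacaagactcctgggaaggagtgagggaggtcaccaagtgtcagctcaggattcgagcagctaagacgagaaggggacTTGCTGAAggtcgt
Gm15782 region: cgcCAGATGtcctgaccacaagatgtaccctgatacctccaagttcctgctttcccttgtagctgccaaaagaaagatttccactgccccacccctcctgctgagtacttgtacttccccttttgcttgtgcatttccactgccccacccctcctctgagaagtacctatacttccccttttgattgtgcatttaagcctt
AC107664.2 region: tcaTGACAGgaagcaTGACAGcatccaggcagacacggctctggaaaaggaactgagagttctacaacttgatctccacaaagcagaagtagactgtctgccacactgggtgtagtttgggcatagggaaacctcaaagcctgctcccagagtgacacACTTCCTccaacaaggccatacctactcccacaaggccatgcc
Serpinh1 region: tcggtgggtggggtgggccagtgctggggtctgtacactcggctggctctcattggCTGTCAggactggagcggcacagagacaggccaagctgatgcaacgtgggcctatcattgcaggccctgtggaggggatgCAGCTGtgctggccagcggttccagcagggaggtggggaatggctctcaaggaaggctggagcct
The B4galt5 stretch holds a palindromic NF-kB word, read on both strands starting at bases 40 and 41 of the stretch, and a C/EBP word (TTGC and AA with 2 bases between). Words of the MEIS family (TGACAG or its reverse complement) stand in the Gdi2, AC107664.2 and Serpinh1 stretches, and an ETS word (AGGAAGT) stands in the AC154685.1 and AC107664.2 stretches. Repeats covered 88.6% of the Gm15782 and 72.6% of the AC107664.2 stretch, and 0% of the Gdi2, AC154685.1 and Serpinh1 stretches. Among all lost regions, 5.12% were repeat-masked over 50% or more of that stretch, against 3.44% of the catalogue.

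These 6 regions had clear summits in every young list. At the Gdi2 region the summit score was 22.8, 10.4 and 17.7 in the young WT and 13.3, 18.7 and 8.55 in the young Mlkl-/- libraries. Among the aged libraries it had a summit in Aged WT 3 alone, with a score of 2.22. The B4galt5 region scored 12.3, 16.2 and 11.8 in young WT and 10.2, 9.86 and 11.9 in young Mlkl-/- libraries, and no aged library listed a summit there. The scores of the AC154685.1 region were 8.99, 17.2 and 11.2 in young WT and 14.9, 18.9 and 9.04 in young Mlkl-/- libraries, and again no aged library had a summit. Young and aged scores did not overlap at 10 of the 12 regions with the largest difference, which also include regions in UTRs of Espn, Med10 and Fam131a.

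The AC107664.2 region was an exception within this group. Its young scores ran from 6.44 to 28.5 with a median of 18.9, and its aged scores were 4.66 in Aged Mlkl-/- 2 and 12.5 in Aged Mlkl-/- 3. The 3 aged WT libraries and Aged Mlkl-/- 1 had no summit there, so the ages overlapped only through Aged Mlkl-/- 3. At the Serpinh1 region the young scores ran from 8.76 to 20.7, and summits of 3.36 in Aged WT 3 and 4.96 in Aged Mlkl-/- 3 remained. The Fam131a region, on chromosome 16 from 20701805 to 20702434, kept summits in 5 of 6 aged libraries at 2.25 to 7.59, below young scores of 16.9 to 27.3.

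Most of the lost regions still had a summit in some aged lists. The counts below include summits within the rank limit of the rule, which 1 list of the other age per region could have. At lost regions with a summit in 3 or more aged lists, the other aged summits therefore lay below that limit. In the full deposited lists, with no limit on rank or score, 690 of the 723 regions (95.4%) had a summit in at least 1 aged library and 539 (74.6%) in 3 or more. A summit stood in all 6 aged libraries at 106 regions (14.7%) and in none at 33 (4.56%). Of the gained regions, 727 of 994 (73.1%) had a summit in at least 1 young library and 3 regions (0.302%) in all 6. The aged lists were on the whole longer than the young ones, and the part of list length in this contrast was not tested. With scores of at least 5 only, 10 of the 723 had a summit in all 6 aged libraries.

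**Figure D1:**
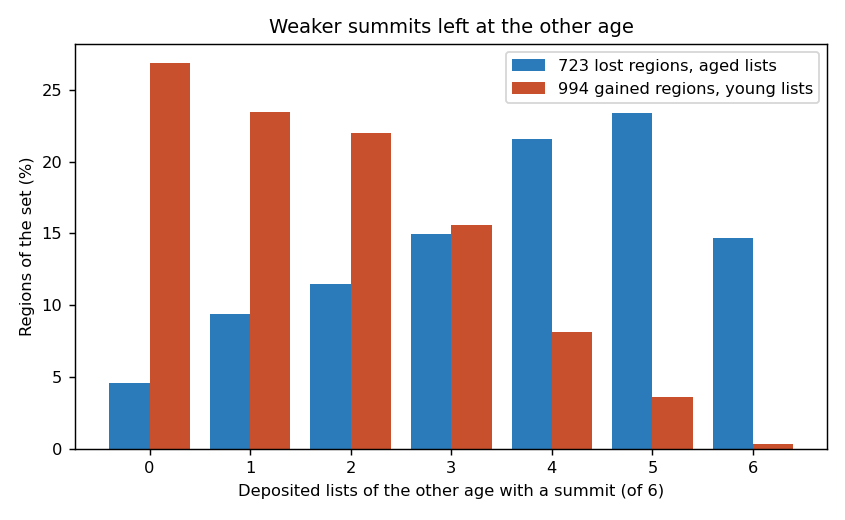
Bars show the percentage of regions (vertical axis) by the number of full deposited lists of the other age, of 6, that had a summit in the region (horizontal axis). For the 723 lost regions the highest bars are at 4 and 5 aged lists (21.6% and 23.4%), and for the 994 gained regions the highest bar is at 0 young lists (26.9%).

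By library, a summit of any score stood at 699 to 713 of the lost regions in the 3 young WT lists. In young Mlkl-/- lists the numbers were 712, 716 and 612, the lowest being Young Mlkl-/- 3, the shortest list of all. Aged WT lists had a summit at 471, 378 and 511 of the regions and aged Mlkl-/- lists at 452, 273 and 578, so the ranges of the genotypes overlapped. The fewest were in Aged Mlkl-/- 2, the shortest aged list, and the most in Aged Mlkl-/- 3, the longest. These were 37.8% to 79.9% of the lost regions, below the share of the whole catalogue in every aged list (72.2% to 83.5%). In young lists 84.6% to 99.0% of the lost regions had a summit, against 55.5% to 81.0% of the catalogue. Among regions that kept a summit, its median rank in the list was 21914 to 26524 in young and 40193 to 45372 in aged libraries. Median scores of the summits that were listed ran from 6.38 to 10.5 in young libraries and from 4.80 to 7.11 in aged libraries.

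**Figure D2:**
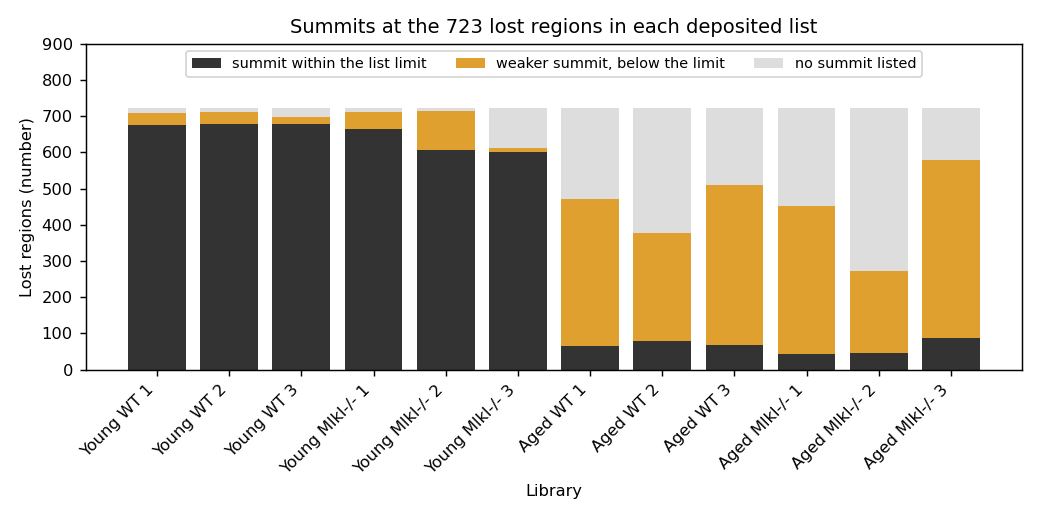
Stacked bars show, for each of the 12 libraries, how many of the 723 lost regions (vertical axis) had a summit within the top 34810, a weaker summit below that limit, or no summit. The top 34810 held 600 to 680 of the regions in young and 43 to 87 in aged libraries, as the rule requires, and weaker summits below the limit filled 228 to 491 in aged libraries.

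Raw scores overlapped between the ages at 607 of the 723 regions (84.0%) and did not at 116. The rule used these scores at both ages. The share over the whole catalogue was not counted, here or beside the same counts for named regions. A raw score depends on its library, since the score at rank 34810 lay between 3.01 and 7.86 in young and between 5.97 and 9.03 in aged lists. Ranks over the whole catalogue were therefore turned into normal scores within each full list. A higher value is a higher rank, and regions without a summit share the lowest value of that list. This lowest value is lower where fewer regions lack a summit, and the aged lists were on the whole longer. List length is therefore part of the young minus aged difference. It also enters the ranking of regions by that difference and the later age tests on full lists. On this scale the young minus aged difference of the lost regions had a median of 0.92 (0.18 to 1.89), against 0.02 over the whole catalogue. The median was 1.01 within WT and 0.87 within Mlkl-/- libraries. The lowest values were −0.12 within WT and −0.09 within Mlkl-/-, so not every region was lower with age in each genotype. With the lists cut to equal length the median was 0.88 over both genotypes. That cut lowered the difference from 1.766 to 1.302 at the B4galt5 region, which had no aged summit. At the Fam131a region, with summits in 5 of 6 aged libraries, it rose from 1.677 to 1.885.

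The 127 regions called in 6 young and 0 aged lists had a median difference of 1.30, and the 220 called in 5 young lists and 1 aged list had 0.70. Just outside the rule, 340 regions called in 5 young and 2 aged lists had a median of 0.47, and 342 called in 4 young and 0 aged lists had 0.84, which lies above the value of the 220. The rule therefore cut through a continuous range. A further 223 called in 6 young and 2 aged lists had a median of 0.70. Among the 340 regions the largest difference was in an intron of Specc1 (1.08), and a region 0.80 kb from the start of Adamts6, called in 4 young and no aged lists, had 1.38.

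The lost regions lay mostly away from transcription starts. The sets compared here also differed in summit strength. The median normal score in young libraries was 0.21 for lost regions, 0.87 for regions called at both ages and −0.14 over the catalogue. The part of summit strength in the contrasts of position, GC content and consensus words was not tested. Within 1 kb of a start were 121 (16.7%), 318 (44.0%) lay in introns beyond that distance and 251 (34.7%) between genes. In the catalogue 30.7% lay within 1 kb of a start, among regions called at both ages 53.4% and among gained regions 8.15%. The median distance to a start was 9.01 kb for lost and 16.5 kb for gained regions. Of regions called in at least 5 young lists, the share within 1 kb of a start was 16.7% with 0 or 1 aged list, 28.0% with 2 or 3, 33.6% with 4 or 5 and 55.8% with all 6. Among the 33 lost regions without any aged summit it was 6.06%, and among the 106 with a summit in all 6 aged lists it was 30.2%. The median GC content was 51.7% in lost, 47.8% in gained and 58.2% in regions called at both ages, and 5 or more CpG lay within 100 bp of the summit in 29.1%, 22.5% and 67.0% of them.

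Consensus words within 100 bp of the summits were counted as a description of the DNA. Lost regions held an ETS word (AGGAAGT) in 23.5%, a MEIS word (TGACAG) in 21.3%, a RUNX word (TGTGGTT) in 18.3%, an AP-1 word (TGANTCA) in 17.3% and a GATA word (AGATAA) in 17.2%. The corresponding shares of the catalogue were 16.2%, 14.2%, 10.5%, 10.4% and 9.05%. Beyond 1 kb of a start, where 602 of the lost regions lay, the shares were 25.6% against 19.6% for ETS, 22.3% against 15.6% for MEIS and 18.9% against 11.5% for GATA. Regions called at both ages had 23.6%, 15.6% and 12.8% there, so for ETS the lost regions were close to them. Gained regions had similar shares to lost regions for RUNX (19.3%) and AP-1 (18.1%) and lower ones for MEIS (12.4%), GATA (11.9%) and ETS (16.9%).

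The NF-kB word is bound by factors of the inflammatory response. It stood in 10.5% of lost regions (76 of 723), 2.52% of gained regions, 6.71% of regions called at both ages and 5.87% of the catalogue. Away from starts the lost regions had it in 9.30%, the gained regions in 2.41% and the catalogue in 4.88%. Named regions with it were those of B4galt5, Cish, Nr1d1, Mtmr14, Anp32a and Rela. The interferon word (GAAA repeated after 2 bases) went the other way, with 2.77% of lost, 5.84% of gained and 3.50% of catalogue regions. CTCF words stood in 18 lost regions (2.49%), 3.02% of gained regions and 9.27% of the catalogue. The KLF/SP word (GGGCGGG), typical of CpG-rich starts, stood in 6.36%, 3.72% and 13.7%. Away from starts KLF/SP stood in 3.65% of lost and 4.89% of catalogue regions. E-box words (CAGNTG) are frequent and stood in 49.4% of lost and 42.3% of catalogue regions. CREB/ATF, EGR and MYB words each stood in under 3% of lost regions. A word in the window does not show that a factor was bound.

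**Figure D3:**
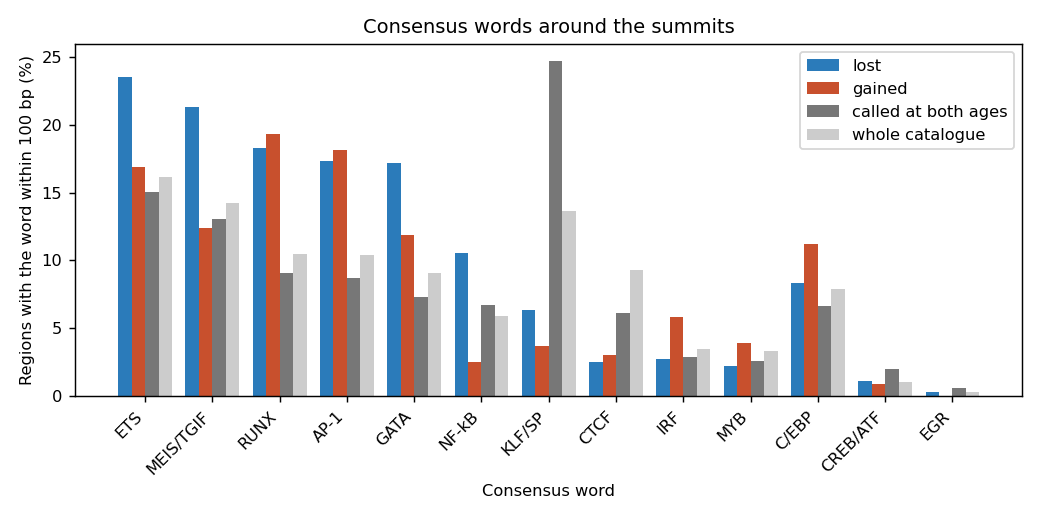
Grouped bars show the percentage of regions (vertical axis) with a consensus word within 100 bp of the summit, for 13 word families (horizontal axis) in lost, gained, both-age and all catalogue regions. The blue bars of lost regions exceed the catalogue for ETS (23.5% against 16.2%), MEIS, RUNX, AP-1, GATA and NF-kB (10.5% against 5.87%) and lie below it for KLF/SP and CTCF.

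Lost regions at transcription starts were described next. The 12 named here are those within 1 kb of a protein-coding start with the largest difference, and young and aged scores did not overlap at 3 of them. At Mcl1, which encodes a survival protein of the BCL2 family, a region in an intron 0.69 kb downstream of the start (chromosome 3, 95659295 to 95659841) scored 14.3, 15.97 and 15.9 in young WT and 14.1, 9.81 and 8.20 in young Mlkl-/- libraries. Aged WT libraries had 5.54, 9.34 and no summit there, and no aged Mlkl-/- library had one. The region 0.64 kb upstream of Nr1d1, a repressor of the circadian clock, scored 3.90 to 18.1 in young libraries, 4.89 and 4.39 in a pair of aged WT libraries and had no summit in the other 4. The region at Haao, an enzyme of tryptophan breakdown, scored 5.31 to 25.9 in young libraries and had aged summits in Aged WT 2 (4.34) and Aged Mlkl-/- 3 (7.86) only.

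At Mtmr14, a phosphoinositide phosphatase, 5 young libraries scored up to 10.5, Young Mlkl-/- 3 had no summit, and no aged library had one. The start of Rnf220, which encodes a ubiquitin ligase, kept a summit in 4 aged libraries, at 3.92 to 7.65, against 9.85 to 23.3 in the young. The regions of the transporter genes Slc17a4 and Slc14a1 kept summits in 5 and 4 aged libraries. At Slc14a1 the score of 16.2 in Aged Mlkl-/- 3 lay within the young range of 9.58 to 18.4. The starts of Rtn2, Btbd19, Slc6a12, Fstl3 and Calm4 had aged summits in 1 to 5 libraries.

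Nearest genes were compared with 16 lists of genes for HSC identity, lineages, ageing, inflammation, signalling and metabolism. Within 50 kb of a protein-coding start lay 529 lost regions, next to 511 genes, or 1.36% of the 38825 catalogue regions that close to a gene. The lists held 0 to 3 lost regions each, so their shares rest on few regions. Genes of HSC self-renewal and identity had 3 of 128 regions (2.34%), at Fli1 with a pair of regions and Gfi1b. Megakaryocyte and platelet genes had 3 of 56 (5.36%), at Fli1 and Vwf, and 2 of these 3 are the same Fli1 regions. Genes of NF-kB, TNF and Toll-like receptor signalling had 3 of 81 (3.70%), at Ikbkb, Rela and Tlr3, and TGF-beta and SMAD genes had 3 of 112 (2.68%), at Id3, Ski and Smad7. Myeloid genes had 0 of 65 and erythroid genes 0 of 32. The other lists had 1 or 2.

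Of the 21 lost regions nearest to a listed gene, 5 had young and aged scores that did not overlap. The region 9.58 kb upstream of Cish, a feedback inhibitor of cytokine signals, scored 7.90, 12.5 and 8.08 in young WT and 11.0, 11.96 and 6.92 in young Mlkl-/- libraries. Its only aged summit scored 2.33 in Aged Mlkl-/- 3. At Zfp36, which encodes the mRNA decay factor tristetraprolin, a region 2.78 kb upstream of the start scored 5.77 to 13.4 in young libraries, and its only aged summit was 3.62 in Aged WT 1. Both regions were therefore higher in every young library than in any aged one.

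The region at the start of Gfi1b, a repressor that restrains HSC cycling, scored 10.5, 7.96 and 6.67 in young WT and 9.58, 7.15 and 5.83 in young Mlkl-/- libraries. It kept weak summits of 3.34 to 4.504 in the 3 aged WT libraries and 5.05 in Aged Mlkl-/- 3, all below the young values. At Vwf, the von Willebrand factor gene used to mark platelet-biased HSCs, a region 5.80 kb upstream scored 6.72 to 11.3 in young libraries. Its aged summits were 3.34 in Aged WT 2, 3.65 in Aged Mlkl-/- 2 and 7.33 in Aged Mlkl-/- 3, so the ages overlapped through 1 library. At Ccnd3, a D-type cyclin gene, young scores of 6.38 to 14.2 stood against aged summits of 4.29 to 5.26 in 3 libraries.

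Other listed genes had wider overlap. The region near Cxcr4, the receptor that keeps HSCs in the marrow, scored 8.41 to 16.1 in young libraries and kept summits in 5 aged libraries, up to 10.2 in Aged WT 3. The region at Flt3, a receptor of lymphoid-primed progenitors, scored 5.47 to 13.7 in young libraries and up to 6.75 in 4 aged ones. At Id3, an inhibitor of E proteins, 10.4 in Aged WT 3 lay inside the young range of 5.50 to 14.0. The pair of Fli1 regions, near the gene of an ETS factor of HSCs and megakaryocytes, scored 3.03 to 17.7 and 5.85 to 11.1 in young libraries. They kept aged summits of up to 8.58 in 3 libraries and up to 7.42 in 5 libraries.

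Some members differed little between the ages. At Rela, which encodes the p65 subunit of NF-kB, young scores of 5.32 to 12.6 overlapped with aged scores of 5.01 to 8.04, and all 12 libraries had a summit. At the start of Oas1a, an interferon-induced gene, young scores of 3.55 to 8.67 and aged scores of up to 7.77 covered nearly the same range. The difference in normal score was 0.54 at Rela and 0.30 at Oas1a, against 1.52 at Cish. At both, the aged summits lay below rank 34810 in at least 5 of the 6 aged lists.

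**Figure D4:**
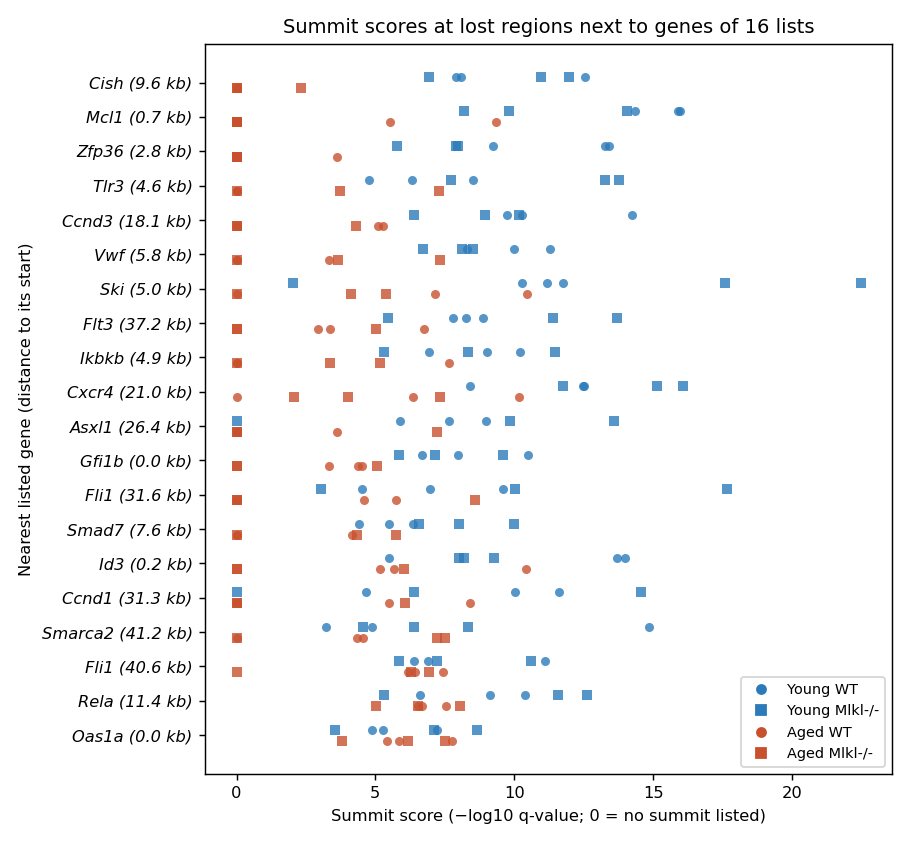
Points show the summit score in each library (horizontal axis, −log10 of the q-value, 0 where no summit was listed, where points lie on top of each other) for the 20 lost regions nearest to a listed gene that kept a summit in at least 1 aged list, with the distance to the gene's start. Young libraries are blue and aged red, WT circles and Mlkl-/- squares, and the rows run from the largest difference in normal score at the top (Cish, 1.52) to the smallest at the bottom (Oas1a, 0.30).

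To ask whether the genotypes differed at the lost regions, normal scores of the 47730 regions with a summit in at least 3 deposited lists, all 723 included, were compared with limma over the 12 libraries. At 3 months 0 of 47730 regions passed a Benjamini-Hochberg adjusted p under 0.01 (0% of all tested), and 2440 (5.11%) had an unadjusted p under 0.05. Of the lost regions 23 (3.18%) did. With only the 6 young libraries in the fit it was 42 of the lost regions (5.81%) against 4.50% of all tested, so the order against the background turned. Without Young WT 1 it was 12 and without Young Mlkl-/- 1 it was 36. Their median Mlkl-/- minus WT difference was −0.17, with 499 lower and 224 higher, beside a median of −0.02 over all tested regions. On lists of equal length, 123 of the lost regions were not called in Young Mlkl-/- 3 and 116 in Young Mlkl-/- 2. The fit used the full lists, and the median was −0.12 without Young Mlkl-/- 3 and −0.10 without Young Mlkl-/- 2. The part of these libraries in the difference was not tested. The lowest limma adjusted p of a lost region was 0.907.

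At 18 months 0 of 47730 regions passed (0%), 2616 (5.48%) had an unadjusted p under 0.05, and 33 lost regions (4.56%) did, 17 higher and 16 lower in Mlkl-/-. Their median difference was −0.05, and the lowest limma adjusted p among them was 0.894. Without Aged Mlkl-/- 3 the median was −0.15, without Aged WT 3 it was −0.11, and without Aged WT 2 it was slightly above 0 (0.0032). On lists of equal length 0 of the lost regions had an unadjusted p under 0.05. For the difference between genotypes in the age change the numbers were again 0 of 47730 (0%), 2072 (4.34%) and 27 lost regions (3.73%). The rule used the same lists and asked for calls in both genotypes at 3 months and their absence in both at 18 months, so it also limits the genotype difference at each age. The tests therefore say nothing on whether the genotypes were alike at these regions. In the full lists, 2 regions had a summit in all 3 aged WT and no aged Mlkl-/- library, and 2 the reverse.

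Because the rule used all 12 libraries, the age difference was tested on regions chosen in 1 genotype and read in the other. The WT lists alone gave 806 regions with a call in all 3 young lists of equal length and in 0 of the 3 aged. In the Mlkl-/- libraries, which did not choose them, 720 of these (89.3%) had a lower mean normal score at 18 months, against 51.3% of all 47730 tested regions. All 3 young lay above all 3 aged Mlkl-/- libraries at 260 (32.3%), against a background of 6.92%, and 10.4% of regions called in 3 of 3 young WT lists, of which 56.8% were lower with age. The Mlkl-/- lists gave 558 regions, of which 464 (83.2%) were lower with age in WT, against 49.6%, and 233 (41.8%) did not overlap, against 8.77%. Of regions called in 3 of 3 young Mlkl-/- lists, 54.8% were lower with age in WT and 12.4% did not overlap. The median young minus aged differences were 0.64 in Mlkl-/- and 0.56 in WT libraries. The catalogue and the list length had been set with all 12 lists. Between the ages, the number of deposited summits, the mice per pool and the summits at Y gene starts differed too. Reading in the other genotype cannot tell their parts from that of age.

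Regions were also tested singly. In limma fits of 6 libraries with an adjusted p under 0.01, 29 of the 806 regions (3.60%) were lower with age in Mlkl-/- libraries, against 103 of 47730 tested (0.216%). Of the 558 regions 21 (3.76%) were lower with age in WT, against 87 (0.182%). On lists of equal length, or with percentiles in place of normal scores, 0 of all 47730 tested regions passed in either genotype. None of either chosen set therefore passed on these scales. The cause of this difference between the scales was not tested. Leaving out 1 library of the tested genotype gave 1 to 26 calls in place of 29 and 0 to 7 in place of 21.

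**Figure D5:**
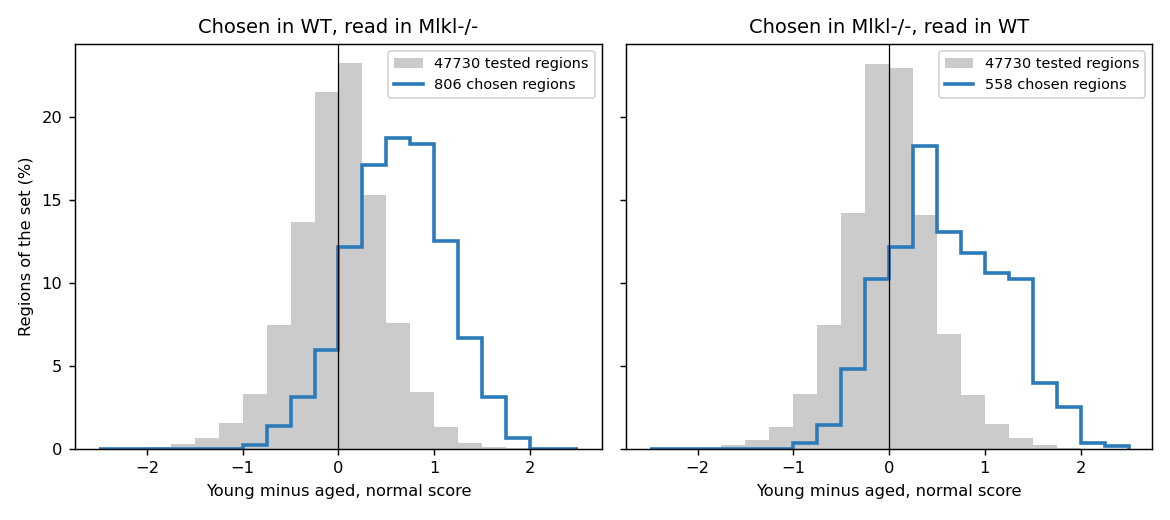
Each panel shows the percentage of regions (vertical axis) by young minus aged difference in mean normal score (horizontal axis) in the genotype that did not choose the regions, for chosen regions (blue line) and all 47730 tested regions (grey). The blue lines are shifted to the right of the grey ones but reach below 0, with medians of 0.64 for the 806 regions chosen in WT and 0.56 for the 558 chosen in Mlkl-/-.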

How the data were processed

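Per the labels, HSCs of 12 libraries were profiled by single-read ATAC-seq. The authors mapped reads to mm10 with Bowtie2 (2.5.3) and called peaks in each library with MACS2 (2.2.7.1), and their submitted processing notes also name bedtools (2.31.0). The deposited values are the −log10 of the q-value at each summit, from about 2 upwards. Positions and sequences came from GRCm38.p6 (mm10) and starts from the GENCODE M21 basic annotation.

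Members and lists were chosen with earlier results of these data known. Lists were cut to equal length, and ties were resolved by a seeded random draw. Regions were ranked within each full list and compared with limma (3.58.1, R 4.3.3, trended eBayes, Benjamini-Hochberg over 47730 regions). Other steps used Python 3.11.15, numpy 2.4.6, pandas 2.3.3 and scipy 1.17.1. The rule and the fits were checked on simulated data.

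A few listed genes are not reported here. Regions named are the 12 with the largest difference, up to 12 within 1 kb of a protein-coding start, those within 50 kb of a listed gene, up to 10 without an aged summit, and 3 on each side outside the rule. Consensus words (14) were searched within 100 bp of each summit. The methods call each pool a biological replicate, and the labels do not say whether replicate pools shared animals. The p-values therefore measure only the spread between these libraries, which may be technical. Replicate numbers did not pair the samples. Depth is unknown, so no counting interval could be given, and 3 libraries per group limit the precision. Alternatives covered score minimums, list lengths, windows, scales, thresholds and left-out libraries. Chromosomes X and Y (with scaffolds, 2.76% of summits) were left out.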

Additional observations from a re-analysis of the deposited data

How the results depend on the processing

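The rule took 645 to 764 regions with all deposited scores, scores of at least 5, windows of 100 bp or ties broken by position, and 335 (scores of at least 5) to 713 of the 723 were among them. It took 333 regions with lists of unequal length, 127 with 6 of 6 young and 0 of 6 aged lists, 2433 with at least 4 of 6 and at most 2 of 6, and 1549 in the 9 libraries whose names carry an unexplained tag. In an alternative chosen after seeing the data, the 3 young lists without summits at Y gene starts and all aged lists gave 2543 (714 of the 723 among them, at least 2 of 3 young lists being asked). Leaving out each library gave 874 to 1116, the highest without Young Mlkl-/- 3, when 605 of the 723 were taken again. With a library left out and in the 9 libraries, the rule asked for all but 1 of the remaining young lists. It still allowed 1 aged list, so it was less strict than with 12 libraries. The number of lost regions with a summit in all aged lists, 106, was 10 with scores of at least 5 and 108 to 259 with a library left out, where fewer lists are asked for each aged library (194 to 259). All genotype counts at an adjusted p stayed at 0 under every alternative run, while lost regions with an unadjusted p under 0.05 numbered 3 to 42 at 3 months (3 with only regions of all 12 lists), 0 to 40 at 18 months and 2 to 31 for the difference in age change. Regions chosen in WT and lower with age in Mlkl-/- libraries (29) numbered 0 on equal-length lists and on percentiles, 90 at an adjusted p under 0.05, 46 with a replicate block, and 1 to 34 with a library left out (2 and 13 without Young Mlkl-/- 1 and 3, and 1, 8 and 11 without Aged Mlkl-/- 1, 2 and 3). Regions chosen in Mlkl-/- and lower in WT (21) numbered 0 on equal-length lists and on percentiles, 12 with every catalogue region tested, 93 at 0.05, 40 in 1 fit over 12 libraries, 70 with a replicate block, and 0 to 32 with a library left out (3, 7 and 1 without Young WT 1, 2 and 3, 0 without any aged WT library, and 32 without Aged Mlkl-/- 3). Apart from the library counts named, the causes were not tested. The replicate numbers shared by the groups did not pair the libraries, since deviations of same-numbered libraries correlated between −0.27 and 0.11, over 0.1 in 1 of 18 pairs. Of 672 values for the 48 named regions, 0 changed sign and 18 moved by 1 SD or more, all 18 on lists of equal length. Unknown depth limits every statement about weak or missing summits.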

Other observations

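Lost regions were spread over the chromosomes, from 1.09% of the catalogue on chromosome 7 to 2.06% on chromosome 19. Of the 723, 60 had another lost region within 50 kb and 14 within 10 kb. No protein-coding gene was the nearest within 50 kb to 3 or more, and 18 genes were the nearest to 2 each. The following were chosen after their values were seen. Near Runx3, which encodes a RUNX factor of lymphoid and HSC biology, both regions lay downstream of the start, at 29.5 and 40.5 kb. The farther one had no aged summit against young scores of 3.71 to 17.8, and the nearer one kept summits in 4 aged libraries, up to 11.5. Abcg1, a cholesterol exporter gene, had a region 0.064 kb upstream of its start and a second 23.4 kb upstream, each with summits in 4 aged libraries and young medians of 8.61 and 6.32.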
